A study of Mus musculus with 24 samples.

Results

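Of the 11 tumour cell lines in this series 6 were put on more than 1 array, and in each of them 1 array carries the bare name of the line in its title while the others are titled replicate 1 or replicate 2. These unnumbered and numbered arrays were compared within lines. The members are 17 of the 24 arrays of the series: 6 unnumbered arrays, 1 in each of the lines A2B1, A2C12, B3, cRAF_cMYC, gammaA7 and gammaB8, and 11 numbered arrays, 2 in each of 5 lines and 1 in A2B1. They were chosen from the titles alone. Each line was grown out of lung tumours of 8-month-old mice that carried both c-Myc and c-Raf transgenes, so unnumbered and numbered arrays share the genotype, and the lines were passaged weekly for up to 50 passages in medium with fetal calf serum. The labels name no other treatment, do not say what separates an unnumbered from a numbered array, whether repeats came from separate cultures, at which passage RNA was taken, whether a line is 1 clone or which promoter drives the transgenes. Another 5 lines (betaD5, betaD10, gammaA3, gammaD1 and gammaD12) have 1 array each, also titled without a replicate number, and 2 arrays hold alveolar epithelial cells of healthy mice without the transgenes, the control. The 3 arrays titled gammaB8 have gammaA8 in another label. The values are signals of an Affymetrix mouse array on a linear scale, scaled so that a level is relative to the remaining RNAs of its array.

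c-Raf is a kinase that passes signals from Ras to MEK and ERK, and c-Myc is a transcription factor of growth and division. Immediate early genes are transcribed soon after growth factor, serum or stress signals reach a cell, before new proteins are made, and several of them encode feedback inhibitors of ERK or transcription factors. Genes of the contractile cytoskeleton respond to serum response factor, which reads the state of the actin cytoskeleton, and genes of cholesterol synthesis respond to the sterol content of cell membranes.

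In the 6 lines, 12 probe sets were higher and 8 were lower on unnumbered than on numbered arrays, 0.168% and 0.112% of the 7125 tested. A call needed a difference of at least 2-fold on the log2(signal + 32) scale and an adjusted p (Benjamini-Hochberg) under 0.05 in limma, a moderated linear model, over the 6 line differences. As set out below, numbered arrays of cRAF_cMYC and gammaA7 pair across these lines, so the 6 differences are not fully separate. The genes that were higher were Ptgs2, Dusp1 and Ier3 of the immediate early genes, Ccl2 of the inflammatory genes, Cnn1 of the contractile genes, and Fhl1, F3, Cyp1b1, Ccl9, Xist and Sgk1 outside those lists. A Rbm39 probe set was also higher. The genes that were lower were S100a4, Mt1, Pdia4, Adprhl2, Actb by 2 probe sets (its far brighter control probe set lay the other way), Col3a1 by 1 of its probe sets, and an unnamed probe set. The calls depended on which lines were in the fit. Without A2C12 there were 2 higher and 1 lower calls, the lower one not among the 8, and without B3, cRAF_cMYC, gammaA7 or gammaB8 there were 0. Without A2B1 there were 22 higher and 15 lower, among them 11 of the 12 and all 8.

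The stretches around the start sites of 4 called genes show the motifs for which promoters of the called genes were searched. Each runs 5′ to 3′ on the gene's strand from 250 bases before to 50 bases after the start site, in RefSeq's GRCm38.p6 build: Dusp1 at chr17:26508423-26508722 on the minus strand, Ier3 at chr17:35821463-35821762, Fhl1 at chrX:56779433-56779732 and Mt1 at chr8:94178839-94179138, all 3 on the plus strand. Capitals mark a cAMP response element in Dusp1, an NF-kappaB site in Ier3, a CArG box (the site of serum response factor) in Fhl1 and 3 metal response elements in Mt1. Other matches were left in small letters, among them metal response elements in Dusp1 and Ier3.
Dusp1: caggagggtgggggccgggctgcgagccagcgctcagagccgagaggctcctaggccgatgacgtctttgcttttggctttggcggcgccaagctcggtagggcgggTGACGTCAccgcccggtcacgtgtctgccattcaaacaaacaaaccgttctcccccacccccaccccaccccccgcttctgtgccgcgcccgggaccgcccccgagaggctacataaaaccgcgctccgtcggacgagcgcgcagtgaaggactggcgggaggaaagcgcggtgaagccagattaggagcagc
Ier3: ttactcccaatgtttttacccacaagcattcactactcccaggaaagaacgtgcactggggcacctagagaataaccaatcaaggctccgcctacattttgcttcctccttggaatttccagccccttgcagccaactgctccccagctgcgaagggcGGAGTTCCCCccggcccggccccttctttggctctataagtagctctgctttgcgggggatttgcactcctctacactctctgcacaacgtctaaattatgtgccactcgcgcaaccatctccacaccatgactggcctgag
Fhl1: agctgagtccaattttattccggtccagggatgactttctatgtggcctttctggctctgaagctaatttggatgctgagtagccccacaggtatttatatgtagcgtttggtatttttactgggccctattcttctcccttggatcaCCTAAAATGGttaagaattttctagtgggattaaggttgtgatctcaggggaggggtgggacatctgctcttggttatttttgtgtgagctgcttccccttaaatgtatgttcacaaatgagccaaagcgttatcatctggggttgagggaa
Mt1: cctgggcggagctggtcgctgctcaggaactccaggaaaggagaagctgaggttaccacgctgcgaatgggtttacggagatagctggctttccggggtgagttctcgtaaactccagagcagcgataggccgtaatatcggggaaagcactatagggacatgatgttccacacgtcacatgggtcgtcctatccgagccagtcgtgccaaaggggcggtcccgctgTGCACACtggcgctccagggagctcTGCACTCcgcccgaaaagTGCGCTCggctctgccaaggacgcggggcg

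The motifs were chosen with the calls in view and are descriptions of sequence only. Of the 12 genes with a higher probe set, 11 have a promoter in the table. Of the 6 named genes with a lower probe set, 5 have one. The cAMP response element (TGACGTCA, both strands) was in 1 of the 11, Dusp1, and in 1.79% of 32851 promoters of the same length. Its core, TGACG, was in 4 of the 11 and in 20.8% of all. The NF-kappaB site was in 4 of the 11 (Ccl9, Cyp1b1, Ier3 and Rbm39) and in 8.46% of all. The CArG box was in 1 of the 11, Fhl1 at 1 of its 2 start sites, and in 1.63% of all. The metal response element (TGCACNC or TGCGCNC, both strands) was in 7 of the 11 and in 25.7% of all. Mt1 was the 1 gene of the 5 with it, and 3 or more matches stood in 1.97% of promoters. The TATA box (TATAAA, forward strand) was in 2 of the 11, in 2 of the 5 and in 8.32% of all, and the xenobiotic response element core (GCGTG, both strands) was in 5 of the 11, in 2 of the 5 and in 32.4% of all. Among the 5, TGACG was in 1 and the cAMP response element, NF-kappaB site and CArG box were in 0. Genes with several start sites, such as Sgk1 with 6, had more sequence searched.

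Several arrays stood apart or went against their line labels. After centring each probe set over the 22 tumour arrays, cRAF_cMYC replicate 1 was most like gammaA7 replicate 1 (Pearson r = 0.76 across the 7125 probe sets) and cRAF_cMYC replicate 2 most like gammaA7 replicate 2 (r = 0.85), while replicates 1 and 2 of each of these lines had r of -0.03 and -0.01. The Y-linked gene Eif2s3y gave signals of 77.7 on the unnumbered array of cRAF_cMYC, 151 on its replicate 2 and 87.8 on gammaA7 replicate 2, against 3.10 and 9.54 on replicate 1 of both lines and 1.92 on the unnumbered array of gammaA7. Elsewhere in these 6 lines it was at most 16.6. The single numbered array of A2B1 differed from its unnumbered partner by at least 2-fold at 13.0% of probe sets, against 2.84% to 6.76% in the other lines. Signals of BioC, a bacterial control transcript added to each sample, were 124 to 166 on the numbered arrays of A2C12 and B3 (3′ probe set), and 526 to 835 on the other 13 arrays of these lines. Of the other added controls, BioB (middle probe set) was at 156 to 188 on those numbered arrays, against 214 to 321 on the other 13. BioDn was at 1687 to 2225 against 1760 to 2936 and Cre at 7550 to 9203 against 8084 to 10372 (3′ probe sets), both with overlap. The part of these differences in the results was not tested beyond the values given with and without the lines concerned.

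Unnumbered arrays were often closer to arrays of other lines than to their own. For 4 of 6 the nearest of the 21 other tumour arrays was an unnumbered or single-array one, and for 2 of 6 it was of the same line, whereas 10 of 11 numbered arrays were nearest to a numbered array and 7 of 11 to their own line. Numbered arrays other than that of A2B1 have a numbered partner of their own line, and no unnumbered array has an unnumbered one. These counts are thus not like for like. B3 and A2B1 were nearest to each other (r = 0.49), although B3 had r of 0.02 and 0.10 with its own numbered arrays. gammaB8 was nearest to the single-array line betaD10 (r = 0.42), with r of -0.20 and -0.13 to its own. A2C12 kept to its line, with r of 0.61 and 0.64. These values are descriptions across probe sets, which are not independent replicates.

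**Figure D1:**
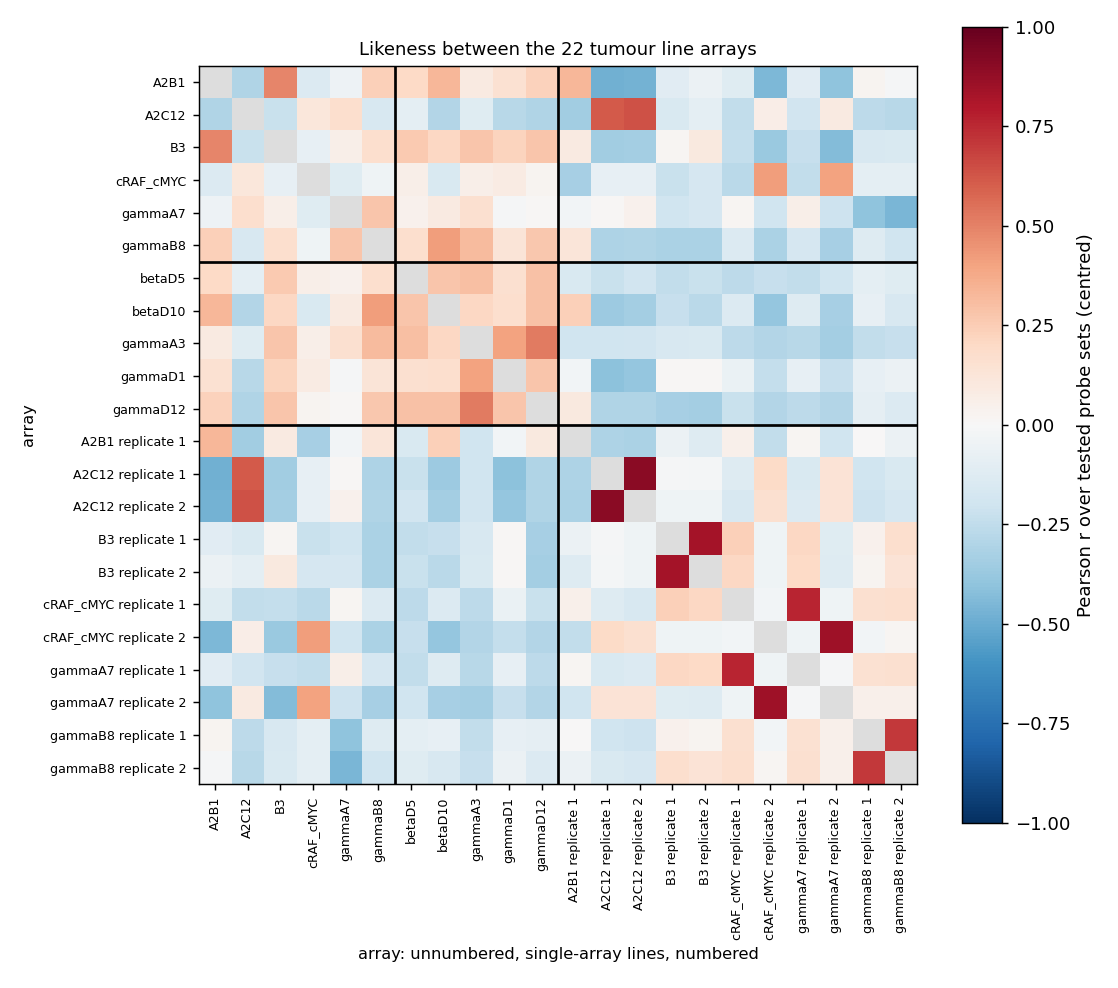
Pearson correlation between the 22 tumour arrays over 7125 tested probe sets, each centred over the arrays, with unnumbered arrays, single-array lines and numbered arrays in blocks divided by black lines and red for positive values. Unnumbered arrays had r of -0.30 to 0.49 among themselves and single-array lines 0.16 to 0.52, A2C12 lying below 0 against every single-array line, while the numbered arrays fall into line pairs of r = 0.71 to 0.90, apart from cRAF_cMYC and gammaA7, whose replicates pair across the lines, and A2B1, which has 1.

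Array medians were 53.2 to 59.3 on unnumbered and 55.0 to 75.5 on numbered arrays and lower on the unnumbered side in 6 of 6 lines, with a log2 difference of -0.20 ± 0.12 (SD, n = 6 lines). The exact two-sided sign-flip permutation test gave p = 0.0312, the smallest that 6 lines allow, and 0.107 after adjustment over the 12 measures examined. Over all 7125 probe sets the median difference was -0.06. When arrays were centred on their medians it became 0.07, with 32 higher and 4 lower calls (88.9% higher, against 60.0% as reported). Quantile normalization gave 7 and 3, or 70.0% higher. Signals of 18S ribosomal RNA were 43.5 to 70.4 on unnumbered and 45.5 to 92.1 on numbered arrays, higher in 1 of 6 lines, with an adjusted exact p of 0.107.

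**Figure D2:**
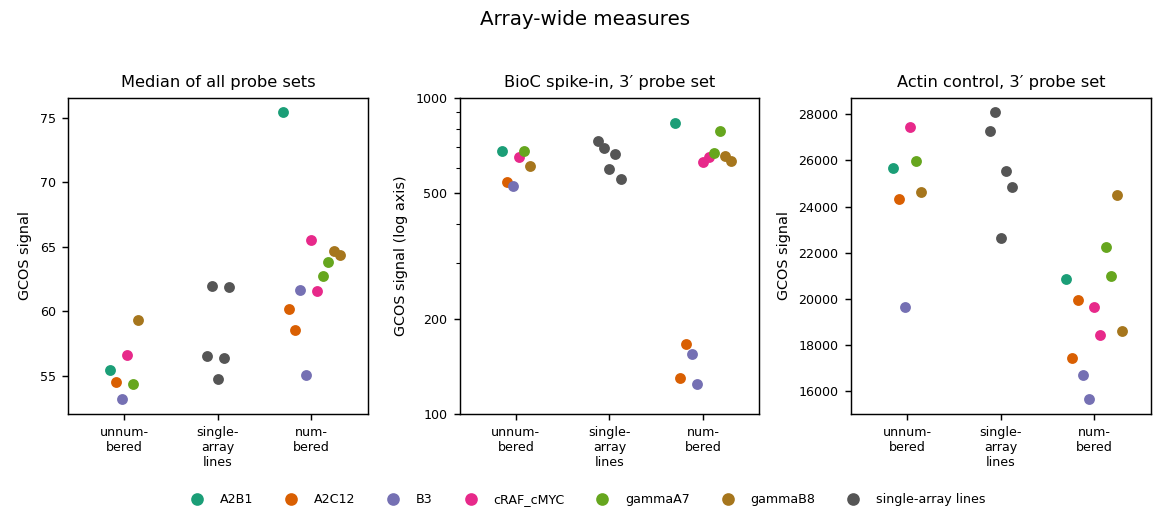
Array median, BioC spike-in and actin control signals on each array of the unnumbered, single-array and numbered kinds, coloured by line. The array medians overlap little between unnumbered and numbered arrays, the 4 low BioC signals (124 to 166) are the numbered arrays of A2C12 and B3, and the actin control lies higher on unnumbered arrays within every line.

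Immediate early genes were the list with the most calls. Of 26 tested genes, 3 were higher and 0 lower, against 11 and 5 of all 5436 genes, and 20 lay above 0 (76.9%, against 41.5% of all genes). The list's median difference was 0.44, against -0.05 over all genes, and its median was above 0 in 6 of 6 lines, at 0.14 in A2B1 and 0.25 to 0.55 in the others. Under quantile normalization and under centring the list's median was 0.45 and 0.57. This list and those below were chosen with earlier results of these data known, so their shares beside all genes are descriptions only.

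Ptgs2, the inducible prostaglandin synthase cyclooxygenase-2, gave signals of 1075 at the lowest, 1509 at the median and 2149 at the highest on unnumbered arrays, against 197, 518 and 850 on numbered arrays. Every unnumbered array lay above every numbered one. The difference was 1.73 ± 0.24 on the log2 scale (SE, n = 6 lines), 3.31-fold, with limma's adjusted p = 0.0234, and ranged by line between 0.92 in A2C12 and 2.93 in A2B1. Dusp1, a phosphatase that switches off MAP kinases including ERK, ranged over 516, 1273 and 1632 (lowest, median, highest) on unnumbered arrays and 183, 282 and 790 on numbered arrays. Its groups overlapped, since 3 numbered arrays, those of A2B1 and gammaB8, exceeded the lowest unnumbered one, but within each line the unnumbered array was higher. The difference was 1.43 ± 0.24 (adjusted p = 0.0320). Ier3, an early response gene linked to ERK signalling and cell survival, ranged over 3804, 4683 and 8623 on unnumbered and 1294, 1887 and 4090 on numbered arrays. Its difference was 1.14 ± 0.19 (adjusted p = 0.0320) and only 0.11 in A2B1.

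The AP-1 transcription factors Fos and Fosb did not pass both criteria. Fosb had a difference of 0.86 ± 0.16 with an adjusted p of 0.0428, under 2-fold, and lay at 90.3, 123 and 167 on unnumbered and 22.1, 43.5 and 122 on numbered arrays. Fos had a difference of 1.51 ± 0.61 (adjusted p = 0.188): it was between 3.06 and 3.24 in A2C12, gammaA7 and gammaB8, 0.82 in B3, 0.48 in cRAF_cMYC and -1.78 in A2B1, whose numbered array had the highest Fos signal of all 17, 1218. The orphan receptor Nr4a1 (1.12, adjusted p = 0.0665) and Klf10 (0.60, adjusted p = 0.0665) were above 0 in 6 of 6 lines. Not every early gene leaned this way: Jun was at -0.28, Gadd45b at -0.44, Socs3 at -0.09 and the acute-phase factor Cebpd at -0.78, with adjusted p of 0.268 or more, and Myc itself at 0.08 (adjusted p = 0.887).

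Among 19 tested inflammatory and NF-kappaB target genes 1 was higher, 0 were lower and 13 lay above 0 (68.4%). The median was 0.51 and was above 0 in 6 of 6 lines, and it was 0.53 under quantile normalization and 0.64 under centring. Ccl2, the monocyte-attracting chemokine, was among the brightest members, with 5726, 8155 and 9193 on unnumbered arrays against 2501, 3932 and 4517 on numbered arrays. The groups did not overlap, and the difference was 1.14 ± 0.14 (adjusted p = 0.0209) with lines between 0.81 and 1.61. The related chemokine Ccl7 had 1.48 (adjusted p = 0.0842, above 0 in 6 of 6 lines), Cxcl1 0.84 (adjusted p = 0.180) and the inhibitor of NF-kappaB, Nfkbia, 0.53 (adjusted p = 0.100). The acute-phase protein Saa3 had the largest value of the list, 1.85, but an adjusted p of 0.137. At the other end stood Vcam1 with -0.72 and Tnfaip2 with -0.73.

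Ccl9, another chemokine, was a dim member of the calls, at 59.0, 86.9 and 320 on unnumbered against 5.44, 25.7 and 77.9 on numbered arrays. Its difference was 1.26 ± 0.15 (adjusted p = 0.0209). F3, tissue factor, which starts blood coagulation, had 376, 1300 and 2525 on unnumbered and 277, 487 and 797 on numbered arrays. A2C12 was low in F3 on each of its arrays, so that the groups overlapped, and the difference of 1.29 ± 0.20 (adjusted p = 0.0311) was smallest there, at 0.30. Sgk1, a kinase induced by serum and glucocorticoids, had 2465, 4477 and 10241 on unnumbered and 1160, 2039 and 7560 on numbered arrays, a difference of 1.04 ± 0.18 (adjusted p = 0.0385).

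**Figure D3:**
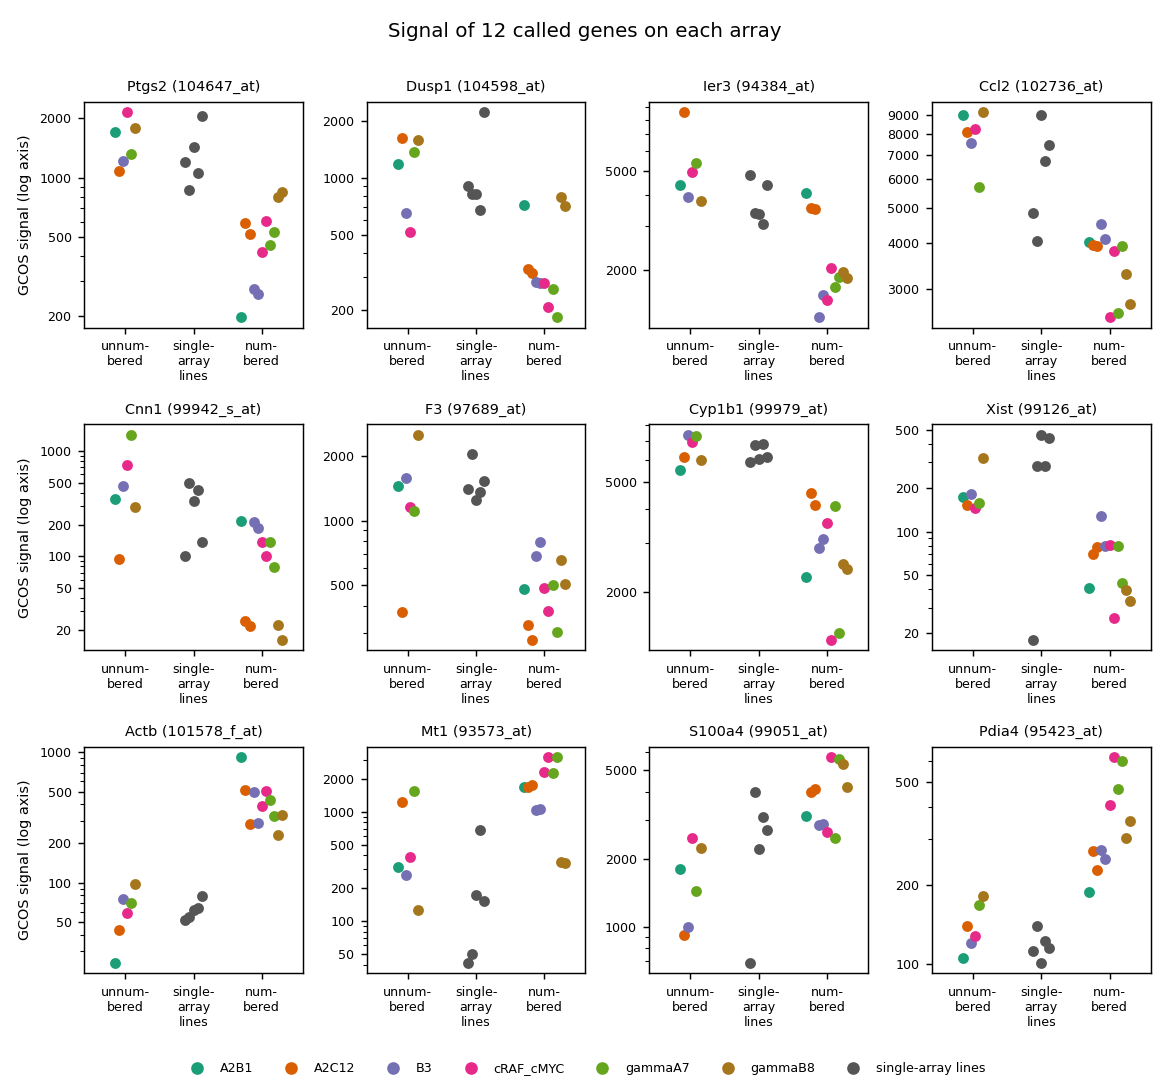
Signals of 12 called genes (log axes) on the 6 unnumbered arrays, the 5 single-array lines and the 11 numbered arrays, 1 point an array, coloured by line. Ptgs2, Ccl2, Cyp1b1 and Xist separate unnumbered from numbered arrays fully, as do Actb (101578_f_at), S100a4 and Pdia4 in the other direction, and the median of the single-array lines lies nearer the unnumbered median on the log scale in each panel except S100a4.

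Of 18 contractile and serum response factor target genes 1 was higher, 1 was lower (Actb, whose probe sets disagreed in direction), and 14 lay above 0 (77.8%), with a median of 0.31, or 0.29 and 0.44 under quantile normalization and centring. Cnn1, calponin 1, a protein of smooth muscle that binds actin, had the largest rise of all genes tested that were called: it lay at 93.8, 410 and 1440 on unnumbered and 15.9, 100.0 and 216 on numbered arrays, a difference of 1.91 ± 0.34 (adjusted p = 0.0385). The lowest unnumbered signal was that of A2C12, whose numbered arrays were lower still. Smooth muscle actin Acta2 (1.25, adjusted p = 0.0674), Tagln (1.08, adjusted p = 0.175), Csrp1, Tpm1 and Actn1 (0.69, 0.47 and 0.45, adjusted p of 0.0766 or more) were each above 0 in 6 of 6 lines without passing the test. Fhl1, a LIM protein of muscle and other contractile cells and no member of the list, was at 117, 730 and 1875 on unnumbered and 19.4, 131 and 570 on numbered arrays, a difference of 1.64 ± 0.30 (adjusted p = 0.0428). Its second probe set gave 0.92 with an adjusted p of 0.0317.

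Cyp1b1, a cytochrome P450 that oxidises polycyclic hydrocarbons and steroids, was bright on all arrays of these lines, at 5516, 6574 and 7416 on unnumbered and 1337, 2888 and 4541 on numbered arrays. The groups did not overlap and the difference was 1.27 ± 0.16 (adjusted p = 0.0209). Xist, the RNA that coats the inactive X chromosome, lay at 145, 165 and 320 on unnumbered and 25.5, 69.9 and 128 on numbered arrays, again without overlap, a difference of 1.25 ± 0.21 (adjusted p = 0.0320). The 2 probe sets of Rbm39, a splicing factor, disagreed: 94689_at gave 436, 675 and 846 on unnumbered against 80.0, 240 and 358 on numbered arrays (1.53 ± 0.25, adjusted p = 0.0320), and the other 0.17 ± 0.12 (adjusted p = 0.426).

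**Figure D4:**
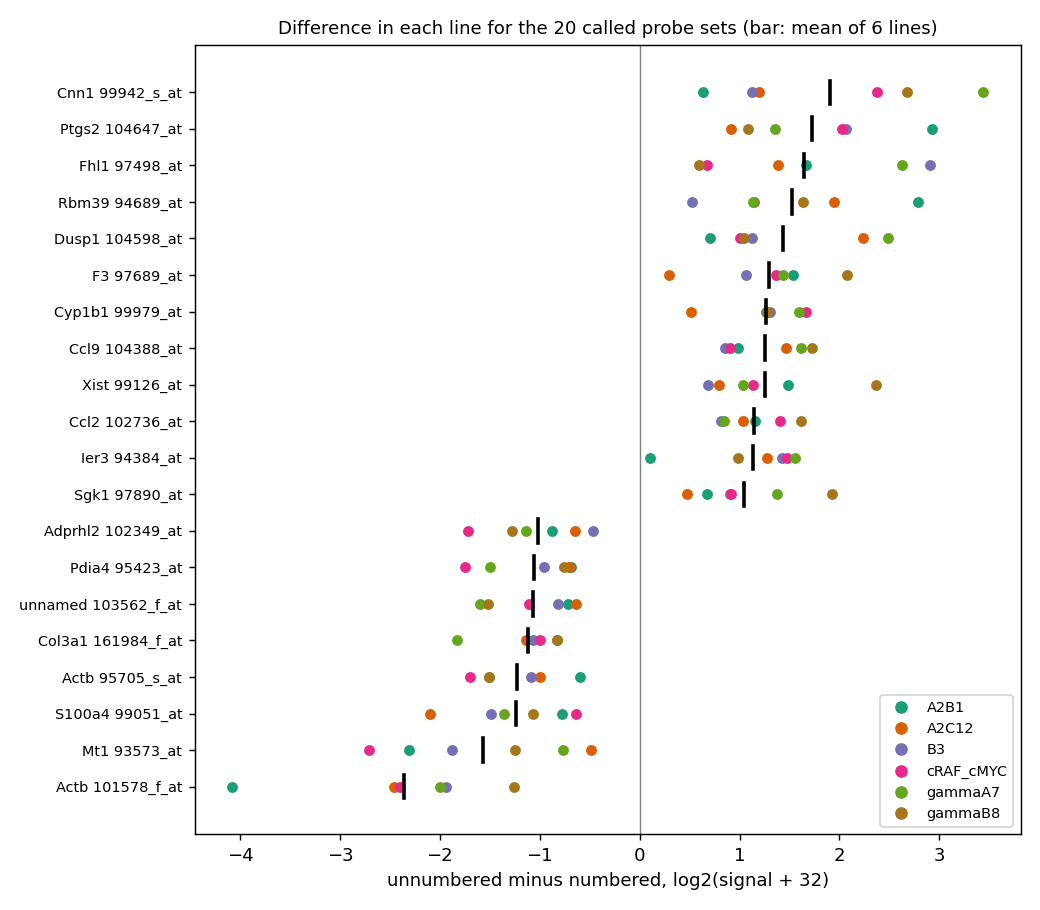
Difference between the unnumbered array and the mean of the numbered arrays in each of the 6 lines, on the log2(signal + 32) scale, for the 20 called probe sets, with the mean of the lines as a black bar. Every point lies on the same side of 0 as its bar, from 0.11 for Ier3 in A2B1 at the smallest to -4.08 for an Actb probe set in A2B1 at the largest.

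S100a4, a calcium-binding protein common in mesenchymal and motile cells, was the brightest gene that was lower: it had 921, 1623 and 2482 on unnumbered and 2487, 3994 and 5704 on numbered arrays. The groups lay just clear of each other, and the difference was -1.24 ± 0.19 (adjusted p = 0.0311). Col3a1, a fibrillar collagen, was called by 161984_f_at (-1.11 ± 0.15, adjusted p = 0.0209), at 24.1, 51.7 and 202 on unnumbered against 76.7, 208 and 521 on numbered arrays. Its brightest probe set gave -1.30 ± 0.28 with an adjusted p of 0.0604, so the gene as ranked by that probe set was not called. These are 2 of 11 tested fibroblast markers, of which 1 was lower, 0 were higher and 8 lay below 0. Col1a1 (0.06), Col1a2 (-0.18), Dcn (-0.24) and Thy1 (-0.27) had adjusted p of 0.678 or more. The summed signal of the 16 fibroblast markers on the array was 6040 to 23779 on unnumbered and 10944 to 23058 on numbered arrays, Tcf21 and Fgf7 staying under 32, and the part of these cells' markers in the result was not tested. In such bulk samples fewer cells of a type and less RNA per cell cannot be told apart.

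Mt1, metallothionein 1, which binds zinc and copper, was at 125, 350 and 1548 on unnumbered and 337, 1688 and 3151 on numbered arrays. Its groups overlapped because lines differed widely, but each line had a lower unnumbered array, at -0.49 in A2C12 and -2.71 in cRAF_cMYC. The difference was -1.57 ± 0.28 (adjusted p = 0.0399), and Mt2 had -1.02 (adjusted p = 0.113). Other genes of the antioxidant list of 23 lay above 0 instead: the sulfiredoxin gene Srxn1 had 0.90 (adjusted p = 0.0209), Nqo1, a quinone reductase, 1.28 (adjusted p = 0.0766), and Gclc, which makes glutathione's precursor, 0.89 (adjusted p = 0.0827). In the whole list 0 were higher, 1 was lower and 14 lay above 0.

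Pdia4, a protein disulfide isomerase of the endoplasmic reticulum, was at 105, 133 and 181 on unnumbered and 188, 304 and 620 on numbered arrays, without overlap (-1.06 ± 0.17, adjusted p = 0.0317). It was the 1 gene called lower among 17 endoplasmic reticulum chaperone genes, of which 0 were higher and 13 lay below 0 (76.5%, against 58.5% of all genes), with a median of -0.21. Pdia3 stood at -0.58 (adjusted p = 0.100) and Hspa5, the main chaperone of the compartment, at -0.05 (adjusted p = 0.879). Adprhl2, which removes ADP-ribose from proteins, was at 17.9, 54.3 and 78.2 on unnumbered and 118, 130 and 185 on numbered arrays (-1.02 ± 0.17, adjusted p = 0.0317). Its other probe set gave -0.14 (adjusted p = 0.535).

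The probe sets for actin disagreed. Of Actb, 101578_f_at was at 24.3, 64.4 and 98.4 on unnumbered and 234, 390 and 918 on numbered arrays, a difference of -2.36 ± 0.30 (adjusted p = 0.0209), and 95705_s_at gave -1.23 ± 0.16 (adjusted p = 0.0209). The Affymetrix control probe set for the 3′ end of beta-actin lay far brighter and the opposite way: 19667 to 27469 on unnumbered and 15666 to 24488 on numbered arrays, higher in 6 of 6 lines by 0.33 ± 0.12 (SD, n = 6 lines; exact sign-flip permutation p = 0.0312, adjusted 0.107). No direction for the Actb gene can be read from these values. The suffixes _f_ and _s_ mark probe sets that can match several transcripts, and such or other marked suffixes were carried by 4 of the 8 lower and 1 of the 12 higher calls, against 18.4% of the tested probe sets.

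Genes of cholesterol synthesis lay below 0 in most lines by amounts that did not pass the test. Of 16 tested genes 0 were called, 15 lay below 0 (93.8%, against 58.5% of all genes) and the median was -0.46, below 0 in 6 of 6 lines, at -0.03 in A2B1 and -0.76 to -0.22 in the others. Quantile normalization and centring gave medians of -0.45 and -0.33, above 0 in 1 of 6 lines under each. Mvd, which makes isopentenyl diphosphate, had -0.75 ± 0.12 with an adjusted p of 0.0317, under 2-fold. It was at 39.1, 59.9 and 98.2 on unnumbered and 62.6, 134 and 220 on numbered arrays. Hmgcs1 (-0.73, adjusted p = 0.112), Lss (-0.72, adjusted p = 0.0818) and Dhcr7 (-0.67, adjusted p = 0.0699) were the next. Among 13 fatty acid synthesis genes 0 were called and 11 lay below 0, with Scd1 at -0.52 (adjusted p = 0.0665) and the regulator Srebf1 at -0.51 (adjusted p = 0.0604). The amino acid response list had 0 calls among 23 genes, 19 of them below 0, with Stc2, a secreted glycoprotein, at -0.78 ± 0.12 (adjusted p = 0.0317) and no overlap between arrays. The lysosome and autophagy list had 0 calls among 22 and 19 below 0, its median lying at -1.01 in A2B1 and -0.21 to 0.10 in the other lines.

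**Figure D5:**
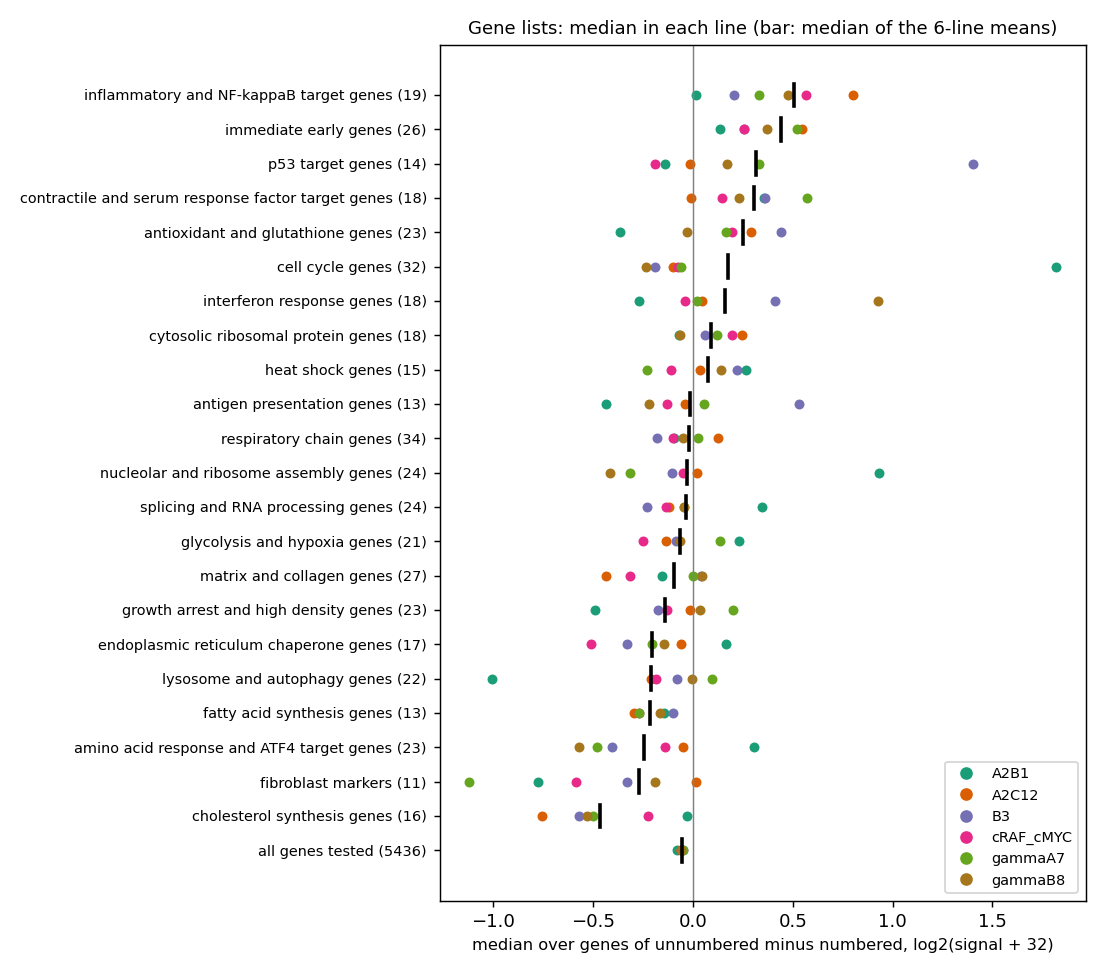
Median difference between unnumbered and numbered arrays over the tested genes of each list (number in parentheses), in each of 6 lines as points and over the 6-line means as a black bar, on the log2(signal + 32) scale. The immediate early and inflammatory lists lie above 0 in every line, the cholesterol and fatty acid lists below 0 in every line at this scaling (under centring both lie above 0 in 1 line), and the cell cycle list stands apart in A2B1 (1.82).

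Of 32 cell cycle genes 0 were called. Their median was 0.17, but it was 1.82 in A2B1 and -0.24 to -0.06 in the other 5 lines, and Cdk1, the mitotic kinase, was at 2.23 in A2B1 and -0.24 to 0.64 elsewhere. The 24 nucleolar genes likewise had a median of -0.03 (0.10 under centring), with 0.93 in A2B1. The 18 cytosolic ribosomal protein genes had a median of 0.09 and 0 calls, and their median turned to -0.03 under quantile normalization. The 14 p53 targets had a median of 0.31 with 0 calls, and 1.41 in B3 alone, and the 18 interferon response genes 0.16 with 0 calls and 0.93 in gammaB8, where the GTPase Irgm1 stood at 3.19.

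Below the 2-fold threshold, 5 further genes, each taken by its brightest probe set, were named by the lowest p among those lower in 6 of 6 lines: Eps8, an adaptor of growth factor receptors (-0.89, adjusted p = 0.0209), the Wnt signal transducer Dvl2 (-0.87, adjusted p = 0.0220), Ssbp4 (-0.87, adjusted p = 0.0234), the cytoskeletal septin Septin9 (-0.75, adjusted p = 0.0234) and Rsrp1 (-0.91, adjusted p = 0.0311). By adjusted p alone 31 probe sets were higher (0.435%) and 34 lower (0.477%), and 22.2% of all had an unadjusted p under 0.05. The 31 include the inhibitor of metalloproteinases Timp1 (0.97 ± 0.18, adjusted p = 0.0428). Id2, an inhibitor of differentiation factors (1.52, adjusted p = 0.0526), and the surface protein Cd24a (1.74, adjusted p = 0.0523) fell just outside. Of all probe sets 4.63% were higher and 10.0% lower in 6 of 6 lines. In 27 (0.379%) all 6 unnumbered arrays lay above all 11 numbered ones and in 45 (0.632%) below, and among the calls this held for 5 of 12 and 5 of 8.

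Markers of other cell types ranged widely: 7 of 8 mesothelial and 10 of 16 fibroblast markers on the array reached a signal of 100 or more on at least 1 of the 17 arrays, against 0 of 8 type II cell markers. Of the 8 type II cell markers on the array 1 (Muc1) was tested and 5, among them Slc34a2, Napsa and Sftpd, stayed under a signal of 32 on all 17 arrays, with summed signals of 77.3 to 165 on unnumbered, 67.0 to 194 on numbered and 2176 to 32697 on control arrays. The lines came from a type II and tumour cell isolation per the labels, and most defining type II markers were thus near the floor. Of 17 epithelial junction and keratin markers on the array 6, among them Epcam, Cldn7 and Ocln, also stayed under 32, while 3 reached 100 or more. The summed signals of the 17 were 487 to 1222 on unnumbered and 601 to 4921 on numbered arrays. Mesothelial markers were bright and variable: Msln was at 3.68, 303 and 1069 on unnumbered and 73.0, 828 and 1709 on numbered arrays (-1.53 ± 0.54, adjusted p = 0.153), and Upk3b at 36.4, 659 and 4253 against 34.8, 2465 and 7465 (-1.74 ± 0.67, adjusted p = 0.170), with the largest shifts of both in gammaA7 (-4.70 and -4.97). Their list had 0 calls among 7, and summed signals of 3253 to 13001 on unnumbered and 2926 to 20024 on numbered arrays. Krt19, an epithelial keratin on both the mesothelial and the junction list, was at 250, 692 and 883 on unnumbered and 218, 1093 and 4378 on numbered arrays (-0.73, adjusted p = 0.416). Myeloid markers had 0 calls among 8, with Ptprc, Lyz2 and Adgre1 under 32 on all 17 arrays and sums of 1437 to 6005 on unnumbered and 802 to 7068 on numbered arrays. Of the 25 myeloid markers on the array 12 stayed under 32 and 5 reached 100 or more. Cd14, the lipopolysaccharide receptor, was at 590, 847 and 1064 on unnumbered and 340, 441 and 1264 on numbered arrays (0.52, adjusted p = 0.232). Lgals3 was at 11.0, 484 and 4141 against 3.06, 1135 and 5729 (-0.46, adjusted p = 0.603). The integrin Itgb2 was at -0.87 (adjusted p = 0.0317). The endothelial list had 0 calls among 2 and sums of 1075 to 3720 against 848 to 3609, with 7 of 11 markers, among them Cdh5 and Tie1, under 32. Eng, the 1 marker of the 11 to reach 100, was at 963, 2931 and 3620 on unnumbered and 758, 1790 and 3402 on numbered arrays (0.39, adjusted p = 0.200). Lymphocyte (2 tested), club and ciliated (2), junction and keratin (5) and erythroid (0) lists had 0 calls.

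The numbered arrays were also set against each other and against the single-array lines. Between replicate 1 and replicate 2, in the 5 lines that have both, limma called 0 probe sets, with 7.75% at an unadjusted p under 0.05. With 5 lines, unnumbered against numbered arrays also gave 0 calls when B3, cRAF_cMYC, gammaA7 or gammaB8 was left out. In the 5 lines without A2B1, those of the replicate comparison, unnumbered against numbered arrays gave 22 higher and 15 lower calls. Counts from 5 lines thus varied widely with the lines taken. The 0 calls here cannot be set against the 12 and 8 from 6 lines, and their difference from the 22 and 15 was not tested. The cRAF_cMYC and gammaA7 differences are also not separate, since their replicates pair across the lines (r = 0.76 and 0.85). The share of probe sets at least 2-fold apart between the unnumbered array and the numbered mean was 2.84% for A2C12, 3.65% for B3, 6.76% for gammaB8, 2.98% for cRAF_cMYC, 5.12% for gammaA7 and 13.0% for A2B1. Between replicates 1 and 2 it was 0.323%, 0.281% and 0.814% for A2C12, B3 and gammaB8, but 6.09% for cRAF_cMYC and 5.96% for gammaA7. For Ptgs2 the mean of replicate 1 minus replicate 2 was -0.11 and for Cyp1b1 0.60, neither called.

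The 5 single-array lines differed from the numbered arrays of the 6 lines at 51 probe sets, 25 higher (0.351%) and 26 lower (0.365%), and 22.3% had an unadjusted p under 0.05. Against the unnumbered arrays limma called 0, with 6.50% at an unadjusted p under 0.05. These comparisons share the numbered or the unnumbered arrays with the one above and set different lines against each other, so line and kind of array cannot be told apart in them. Side by side, Cyp1b1 was 1.22 ± 0.16 higher on single-array than on numbered arrays (adjusted p = 0.00062) and at -0.04 against unnumbered ones, with 5879, 6138 and 6860 on single-array lines. Ptgs2 was 1.49 ± 0.30 higher (adjusted p = 0.0104), F3 1.61 ± 0.33 (adjusted p = 0.0119), and Dusp1 1.33 ± 0.38 (adjusted p = 0.0493). Mt1 was lower, at -3.04 ± 0.66 (adjusted p = 0.0147), as were Pdia4 at -1.25 (adjusted p = 0.00417) and Actb 101578_f_at at -2.30 (adjusted p = 0.00011). Cnn1 (1.25, adjusted p = 0.199), Fhl1 (0.84, adjusted p = 0.608), Ier3 (0.73, adjusted p = 0.110) and S100a4 (-0.73, adjusted p = 0.226) were not called there. Of the 20 probe sets called between unnumbered and numbered arrays, 16 had a single-array median nearer the unnumbered than the numbered median on the log scale, the other 4 being those of S100a4, Fhl1, Col3a1 and the unnamed one. The largest rise among the 51 was Pkp2, a desmosome protein, by 2.41 (adjusted p = 0.00062), for which unnumbered against numbered arrays gave 0.87 (adjusted p = 0.0766). In the 2 control arrays Dusp1 (2961 and 3400) exceeded every array of the 6 lines, and Cyp1b1 (327 and 128), Cnn1 (13.9 and 23.4) and S100a4 (367 and 394) lay under the unnumbered arrays' lowest.

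The results were set out again by the lines doubted above. Without cRAF_cMYC and gammaA7, whose numbered arrays pair across lines, limma called 0 probe sets in the 4 lines left, with 823 at an unadjusted p under 0.05. Ptgs2 was at 1.75, Ccl2 at 1.15, Cnn1 at 1.41 and S100a4 at -1.36. Without A2C12 and B3, whose numbered arrays have low BioC signals, 0 were called in the 4 lines left (1059 at an unadjusted p under 0.05). Ptgs2 was then at 1.85, against 1.49 as the mean of A2C12 and B3, Cnn1 at 2.28 against 1.16, Fhl1 at 1.39 against 2.15, Mt1 at -1.76 against -1.18 and Actb 101578_f_at at -2.43 against -2.20.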

How the data were processed

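Per the submitters' processing notes, the deposited intensity signals were made with Affymetrix's GCOS software, version not given in the sources used here; background correction and detection calls are not given there either. The mean signal, trimmed by 2% at both ends, was 249.9 on every array, so arrays had been scaled to 1 trimmed mean. All value columns were mapped to a sample (0 without). Each value is 1 reading of a probe set, and precision is limited by how many arrays there are.

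Gene lists and the genes in them were chosen with earlier results of these data known. Of 12422 probe sets other than controls, 10833 had 1 gene symbol in the platform annotation, 396 several and 1193 none; 10817 symbols were updated through Entrez IDs in RefSeq's table. Signals were taken as log2(signal + 32), which understates changes of low signals. Tested were the 7125 probe sets above their array's median on at least 2 of the 17 arrays, of which the brightest of each gene stands for it (5436 genes). Numbered arrays of a line were averaged, and the 6 line differences, unnumbered minus numbered, were fitted in limma 3.58.1 (R 4.3.3) with 5 residual degrees of freedom. All adjusted p-values of genes are limma's, Benjamini-Hochberg over the tested probe sets. Where nothing says that repeats were separate cultures, p-values measure the spread between these lines' arrays, part of which may be technical. Single-array lines were fitted against the line values of unnumbered and of numbered arrays. That fit had no line term and treated the unnumbered and numbered values of a line as independent. Replicate 1 was fitted against 2 within lines. Array-wide measures had an exact two-sided permutation test over 64 sign flips. The fits were checked on simulated data.

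Named genes are the 15 largest (or as many as there were) rises and falls among called genes with 1 sign in 6 lines, up to 3 called members per list or otherwise its largest change, marker genes reaching a signal of 1000, and, where under 10 were called in a direction, further genes to 10 by lowest p among those with 1 sign. Rbm39, Col3a1, Fos, Fosb, Id2, Cd24a, Timp1, Pkp2 and list members without a call were otherwise named after their values were seen. Alternatives were other offsets, a floor, scalings, filters, fits and variance models, 1 numbered replicate, adjusted p alone and sets of lines. Figures were drawn with matplotlib 3.10.9.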

Additional observations from a re-analysis of the deposited data

Results flagged for a closer look

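In the 56 groups of signals examined with 4 to 10 arrays, 5 had 1 array far from the rest by Dixon's criterion, which chance alone meets in about 1 of 20 groups. Ier3 was 8623 on the unnumbered array of A2C12, against 3804 to 5357 on the other unnumbered arrays. Xist was 320 on the unnumbered array of gammaB8, against 145 to 182. Among single-array lines, Dusp1 was 2231 in gammaD12, against 674 to 902, Mt1 was 680 in gammaD1, against 41.5 to 174, and the actin control's 3′ signal over its 5′ signal was 1.26 in gammaD12, against 1.11 to 1.14. The part of these arrays in the results was not tested beyond leaving out lines.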

How the results depend on the processing

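The counts of calls depended on the processing. Against 12 higher and 8 lower, an offset of 1 gave 3 and 7, an offset of 100 gave 12 and 3, and a floor of 32 gave 16 and 20. Of the 12 and 8, an offset of 1 kept 3 and 3 and an offset of 100 kept 9 and 3. The floor kept all of them, centring on array medians 12 and 4, and quantile normalization 6 and 3. Quantile normalization gave 7 and 3, centring on array medians 32 and 4, no filter 3 and 2, a fit of all 17 arrays with line as a term 31 and 21, no line term 5 and 4, replicate 2 alone (5 lines) 25 and 17, and adjusted p alone 31 and 34. Leaving out a line gave 0 to 22 higher and 0 to 15 lower; with 5 lines fewer values enter each fit. Without cRAF_cMYC and gammaA7, and without A2C12 and B3 (a set chosen after seeing the data), both counts were 0. The 16 called genes kept their direction in every setting run, which their 1 sign in all 6 lines had fixed for left-out lines, and of 1007, 166, 28 and 12 single-gene values the side of the threshold stayed the same, was lost, was gained, or the direction turned. The turned values belong to uncalled markers: Col1a1 was at -0.026 under quantile normalization, -0.086 with replicate 1 alone, -0.12 as the mean of its probe sets and -0.072 (without gammaB8) to 0.20 when a line was left out; Lgals3 at 0.50 and Thy1 at 0.57 with replicate 1 alone; Col1a2 at 0.041 and Bnc1 at 0.15 with replicate 2 alone; Dcn at -1.01 (without A2C12) to 0.21 (without gammaA7) and Thy1 at -0.51 (without cRAF_cMYC) to 0.17 (without gammaA7) over left-out lines, and Dcn at 0.22 without cRAF_cMYC and gammaA7. Single-array lines against numbered arrays gave 90 calls with an offset of 1, 22 with 100 and 355 by adjusted p alone, and 30 to 83 when a line was left out, against 51. Against unnumbered arrays, and between replicates 1 and 2, every setting gave 0. The causes were not tested. Unnumbered and numbered arrays were paired by line in the comparison itself. By replicate number no paired analysis was possible because unnumbered arrays carry none. Few lines and low signals near the offset limit what could be called.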
